A study of Glycine max with 11 samples.

Results

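The end of seed filling was followed in soybean (Glycine max, cultivar BRS284) by comparing freshly harvested whole seeds of stage 7.2, at 63 d after flowering, with those of stage 7.1, at 57 d after flowering. The comparison rests on 3 of the 11 RNA libraries of the series, 2 of stage 7.2 and 1 of stage 7.1, chosen by the stage and treatment given in their labels. The other 8 libraries are later stages up to stage 9 and seeds of stage 7.2 that were dried after harvest. All plants of this single cultivar were grown at an experimental farm, and seeds of both stages were frozen fresh in liquid nitrogen without drying. Seeds of many plants were collected at each stage and RNA was taken from whole seeds, so embryo and seed coat are mixed, and a smaller share of one tissue cannot be told apart from less RNA per cell in it.

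Seed filling is the phase in which the embryo lays down storage proteins, oil and starch, fed by sugars and amino acids from the mother plant. Towards its end, orthodox seeds such as those of soybean take up programs of late maturation: they build raffinose family oligosaccharides (RFO) and late embryogenesis abundant (LEA) proteins, which are linked to survival in the dry state, and they break down chlorophyll. Abscisic acid (ABA) and transcription factors (TFs) of the ABI and HSF families are known regulators of this phase, and auxin signalling and cell division belong to earlier seed growth.

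The libraries held 34971702 and 31799644 counts at stage 7.2, against 24112015 at stage 7.1. At least 1 count was found for 40320 and 39400 genes at stage 7.2 and for 41253 genes at stage 7.1, of 56044 genes in the table. The defining seed transcripts were present in all 3 libraries, with lectin (Glyma.02G012600) at 6013 and 9475 at stage 7.2, against 222582 at stage 7.1, in normalized counts. A normalized count, here and below, is the deposited count divided by a DESeq2 size factor computed over the 9 freshly harvested libraries. It allows a gene to be compared between libraries but not the levels of different genes, since long transcripts collect more reads. Since stage 7.1 has 1 library, its spread was assumed to equal that of the stage 7.2 pair, and stage cannot be told apart from library. The study calls the pair biological replicates, but neither it nor the labels say whether they came from separate plants. The p-values measure only the spread between these libraries. Values of soybean genes that share reads with a near-identical copy are uncertain.

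The change between the stages was far larger than the difference between the replicates. This was measured over the 19084 genes whose mean reached 100 normalized counts, here with size factors of the 3 libraries. The root mean square difference of stage 7.2 (mean of both libraries) minus stage 7.1 was 1.71 on the log2 scale, with a pseudocount of 1, whereas that between the 2 replicates of stage 7.2 was 0.263. The median absolute difference was 0.909 between the stages and 0.135 between the replicates. For 17203 of these genes (90.1%) the stage difference was larger than the replicate difference. A difference of at least 2-fold was found for 8815 genes (46.2%) between the stages and for 129 genes (0.676%) between the replicates. Across these genes, which are not independent replicates, the Pearson correlation was 0.991 between the replicates, and their correlations with stage 7.1 were 0.537 and 0.538.

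**Figure D1:**
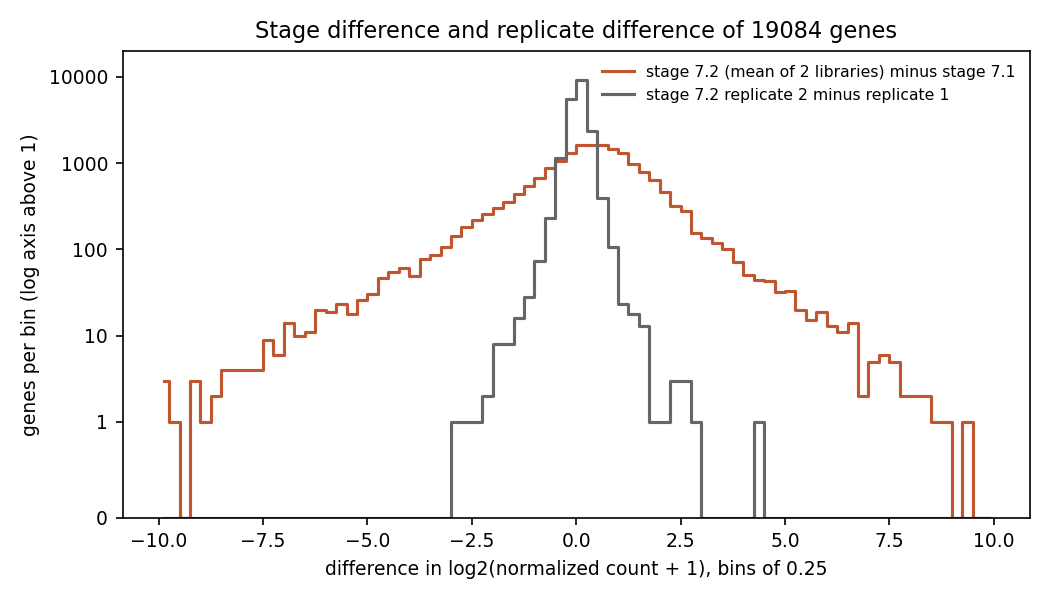
Number of genes (vertical axis, logarithmic above 1) by difference in log2(normalized count + 1) (horizontal axis) for 19084 genes. The orange line is stage 7.2 (mean of 2 libraries) minus stage 7.1, and the grey line is replicate 2 minus replicate 1 of stage 7.2, which stays much closer to 0: 46.2% of the genes differed at least 2-fold between the stages and 0.676% between the replicates.

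With edgeR's quasi-likelihood test, 7204 of 33814 genes tested (21.3%) were higher at stage 7.2 and 9345 (27.6%) were lower, so that 48.9% were called in either direction, at a change of at least 2-fold and a Benjamini-Hochberg adjusted p below 0.05. The large changes leaned to lower levels: at least 16-fold differences were called for 614 higher and 1594 lower genes, those with few counts included. Where the mean reached 100 normalized counts, more genes were called higher (5095) than lower (2694). Direction thus varied with the level. Of 3532 genes with a mean over the 3 libraries of at least 1000 and below 10000 normalized counts, 49.4% were higher and 5.52% lower, whereas of 12645 genes with means of at least 10 and below 100, 12.6% were higher and 41.9% lower. In this mean stage 7.2 counts with 2 of 3 libraries, so that the change itself affects the class of a gene. With the level taken midway between the stages on the log2 scale, a choice made after seeing the data, 41.2% of 2832 genes in the first class were higher and 6.46% lower, and 14.2% of 12640 genes in the second were higher and 40.7% lower. When scaled by the upper quartile of the counts, which shifts the median of all genes to -0.28 on the log2 scale from -0.03, the calls were 5548 higher and 10838 lower. DESeq2, run on the same 3 libraries, called 6208 genes higher and 5911 lower.

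The genes with the most counts took a smaller share of the reads at stage 7.2. The gene with the most counts held 2.03% and 2.22% of all counts in the 2 libraries of stage 7.2, against 10.1% at stage 7.1. The top 10 genes of each library held 13.5% and 14.8% at stage 7.2, against 33.9% at stage 7.1, and the top 100 held 38.3% and 41.0%, against 58.1%. The 95% Wilson intervals, which cover counting error only, were within 0.0197 percentage points of each value. The lists of 10 at both stages shared 2 genes. The 10 genes of stage 7.1 took 4.75% and 5.78% at stage 7.2, against 33.9% at stage 7.1, a list picked for its level at stage 7.1. The 10 genes with the most counts at stage 7.2 took 13.5% and 14.8% at stage 7.2, against 14.5% at stage 7.1. Further down the order the shares came together, and the first 10000 genes of each library held 92.9% and 93.5% at stage 7.2, against 92.1% at stage 7.1.

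**Figure D2:**
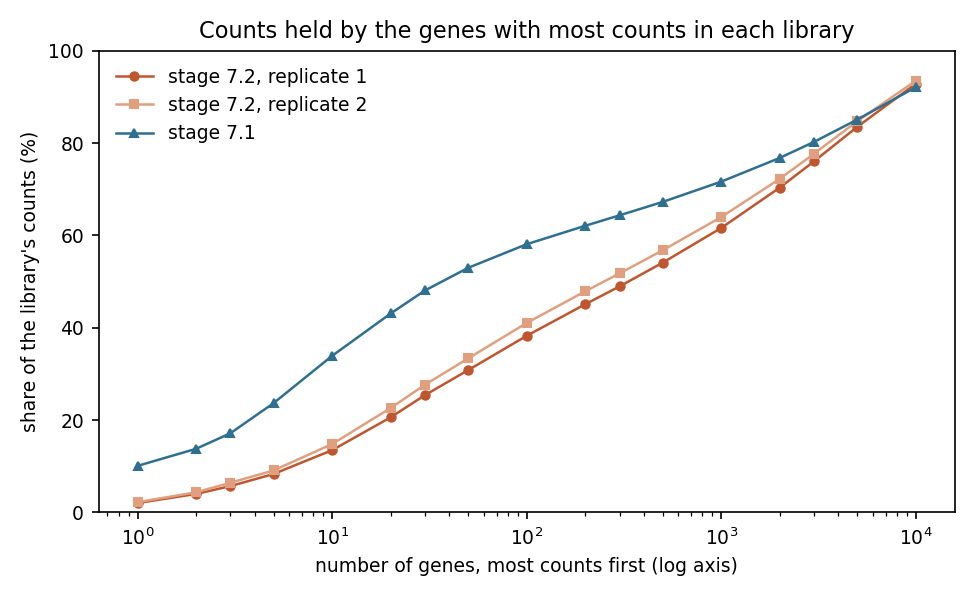
Share of a library's counts (vertical axis, in percent) held by its genes with the most counts (horizontal axis, number of genes, logarithmic), for stage 7.2 replicate 1 (circles), stage 7.2 replicate 2 (squares) and stage 7.1 (triangles). The first 10 genes held 13.5% and 14.8% at stage 7.2, against 33.9% at stage 7.1.

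The 5 genes with the most counts at stage 7.1 were all lower at stage 7.2, a direction partly set by picking them for their level at stage 7.1. Of these, a single gene has a name in the tables of the study, the 34 kDa maturing seed protein gene Glyma.08G116300, whose closest Arabidopsis match is a cysteine peptidase. It had 19074 and 30570.2 at stage 7.2, against 805831 at stage 7.1 (log2 fold change -4.83 ± 0.43 (SE), edgeR adjusted p = 5.16e-07). Replicate 2 was above replicate 1, and both were far below stage 7.1. The other 4 are given by identifier, since the tables used here do not name them. Glyma.03G163500 had 339889 and 489820.0 at stage 7.2, against 2462180.0 at stage 7.1 (log2 fold change -2.38 ± 0.56 (SE), edgeR adjusted p = 0.00206), and it was still among the 5 genes with the most counts at stage 7.2. Glyma.10G037100 had 20185 and 38606 at stage 7.2, against 902916 at stage 7.1, and Glyma.13G288100 had 9767 and 12817 at stage 7.2, against 822196 at stage 7.1 (log2 fold changes -4.75 and -5.99). Glyma.20G146200 had 75011 and 95810.0 at stage 7.2, against 785716 at stage 7.1 (log2 fold change -3.01). For all 4 the single library of stage 7.1 was above both libraries of stage 7.2.

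The other 4 of the 5 genes with the most counts at stage 7.2 were all higher than at stage 7.1. Here too the direction is partly set by the choice, made for the level at stage 7.2. Glyma.06G283900 had 407936 and 454387 at stage 7.2, against 3033 at stage 7.1 (log2 fold change 7.34 ± 0.60 (SE), edgeR adjusted p = 2.57e-07). Glyma.09G185500 had 398882 and 474217 at stage 7.2, against 84533 at stage 7.1 (log2 fold change 2.56 ± 0.48 (SE), edgeR adjusted p = 3.67e-04). Glyma.10G064400 had 272716 and 322699 at stage 7.2, against 37336 at stage 7.1, and Glyma.10G207100 had 254875 and 266783 at stage 7.2, against 75857 at stage 7.1 (log2 fold changes 3.19 and 1.97). None of these 4 genes is named in the tables used here. The call of Glyma.10G207100 was lost in a fit of all 11 libraries, where its log2 fold change was 1.97 and the adjusted p was not below 0.05.

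The 2 replicates of stage 7.2 were not equal for the genes with the most counts. Of 44 genes called lower whose mean reached 10000 normalized counts, 43 were higher in replicate 2 than in replicate 1, with a median difference of 0.47 on the log2 scale, against a median stage change of -2.82. Of 98 genes called higher at that level, 88 were also higher in replicate 2, with a median difference of 0.18. The part of this replicate difference in the results was not tested. Every gene named above had both replicates on the same side of stage 7.1.

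Gene groups were taken from the names in the study's tables, which as used here cover 3243 genes. Of 3001 of them tested, 29.9% were higher and 33.1% lower. These tables are not a random draw from the genome. The TFs had been chosen for their variation over maturation, these 3 libraries included. Of 524 TFs tested, 80 (15.3%) were higher and 315 (60.1%) lower at stage 7.2, and the count is therefore no independent evidence. The same holds for the genes chosen for variation among all genes, a table used here only in part, of which 94 of 683 (13.8%) were higher and 395 (57.8%) lower. The part used holds 850 genes, and those of them named below carry identifiers from the start of the genome's numbering. Its shares may therefore differ from those of the whole table. Another table holds genes that differed between stage 9 and dried seeds of stage 7.2. It too was used here only in part, and of the 1912 genes tested from it 762 (39.9%) were higher and 323 (16.9%) lower. These shares are the background for the counts below, beside the 21.3% and 27.6% of all genes. A median log2 fold change of a group is to be read beside the median of all genes, -0.03.

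**Figure D3:**
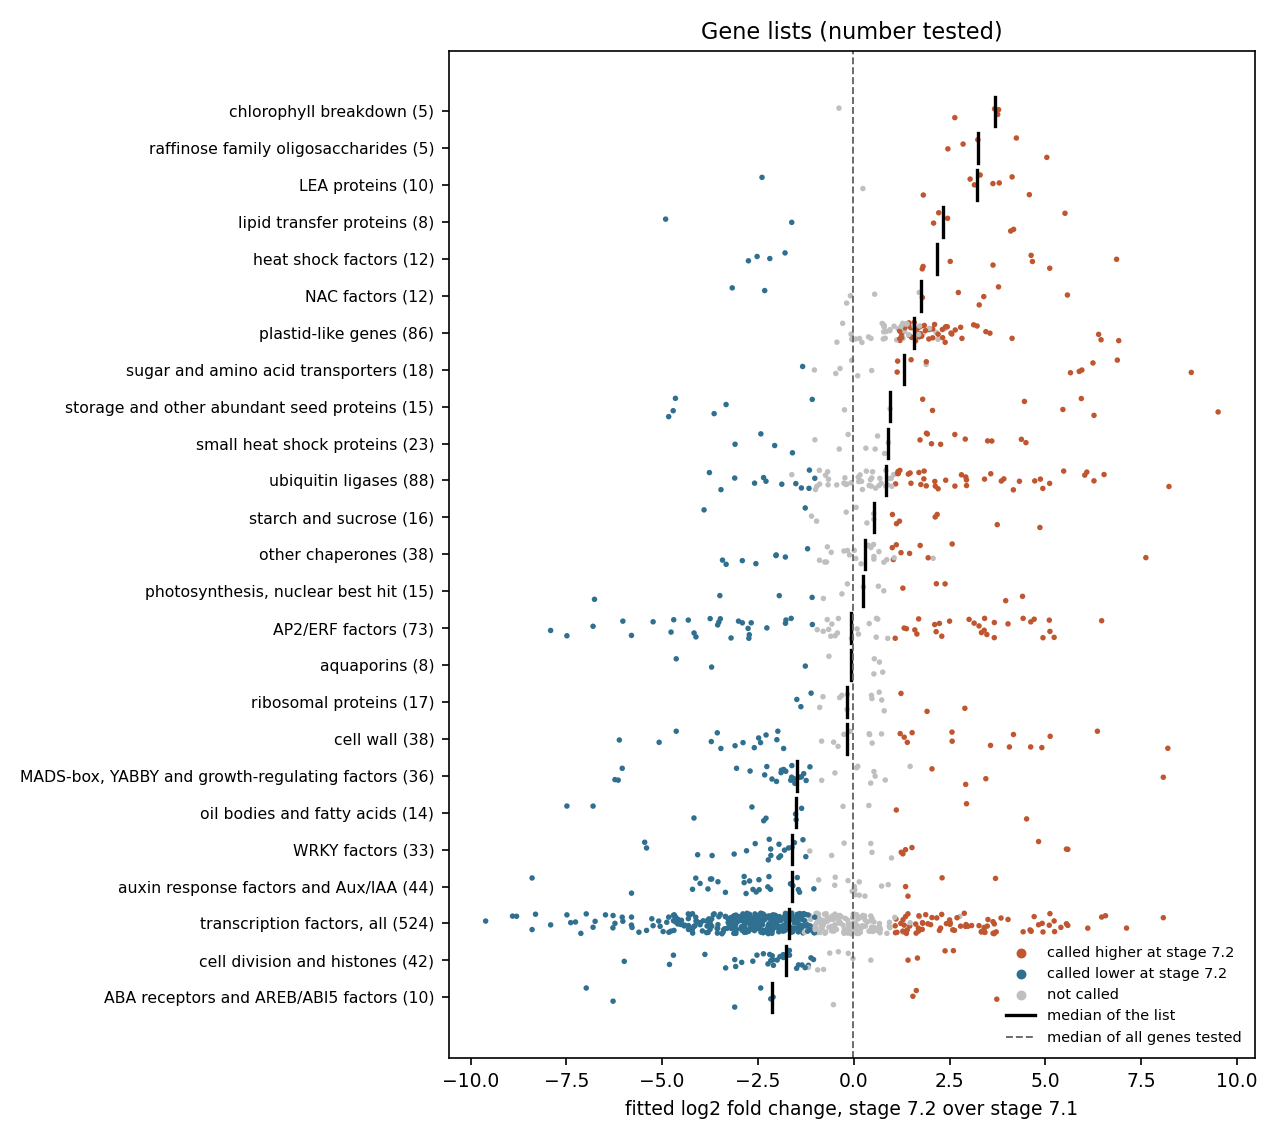
Fitted log2 fold change of stage 7.2 over stage 7.1 (horizontal axis) for the tested members of each gene list (rows, number tested in brackets), ordered by median. Orange points were called higher at stage 7.2, blue points lower and grey points were not called. Black bars are list medians and the dashed line is the median of all genes, -0.03. The chlorophyll breakdown and RFO lists have the highest medians, 3.68 and 3.24, and the values of genes with 0 counts at one stage depend on the fit.

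The group of storage and other abundant seed proteins, as far as the tables used here name them, changed in both directions. Of 15 genes, all tested, 7 were higher, 6 lower and 2 not called, with a median log2 fold change of 0.95. Of the 15, 9 are protease inhibitors, with 6 of the higher and 3 of the lower genes, so the counts are mostly theirs. The unnamed genes among those with the most counts at stage 7.1, all lower at stage 7.2, are not in this group. Nor does the group hold a gene named glycinin or beta-conglycinin, so its counts leave those storage proteins out. The 6 lower genes held most of its reads, and the group took 0.219% and 0.295% of all counts at stage 7.2, against 4.84% at stage 7.1. Lectin, a carbohydrate-binding seed protein, was lower (log2 fold change -4.65 ± 0.32 (SE), edgeR adjusted p = 5.40e-08), at the levels given above. The Kunitz-type trypsin inhibitor KTI1 (Glyma.01G095000), a protease inhibitor of the mature seed, had 7852 and 12892 at stage 7.2, against 119208 at stage 7.1 (log2 fold change -3.33 ± 0.29 (SE), edgeR adjusted p = 4.34e-07). Another 34 kDa maturing seed protein gene, Glyma.08G116400, had 651 and 1021 at stage 7.2, against 24976 at stage 7.1. In 5 of the 6 lower genes replicate 2 was higher than replicate 1.

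The protease inhibitors of the Kunitz family did not move together. Of 9 in the group, 3 were lower and 6 higher. Among the lower ones, Glyma.09G155500 had 149 and 147 at stage 7.2, against 2117 at stage 7.1 (log2 fold change -3.64 ± 0.12 (SE), edgeR adjusted p = 2.28e-10). Among the higher ones, the alpha-amylase/subtilisin inhibitor gene Glyma.12G234800 had 429.5 and 340.0 at stage 7.2, against 7.09 at stage 7.1 (log2 fold change 5.94 ± 0.33 (SE), edgeR adjusted p = 7.60e-09). The serine protease inhibitor gene Glyma.15G211500 had 71.9 and 78.4 at stage 7.2, against 1.012 at stage 7.1, and 1 count at stage 7.1 gives a ratio of 73.9 with a counting interval of 13.1 to 2932. Of the 6 higher genes, Glyma.12G234800 had the most counts. Of the 2 lipoxygenase genes, whose enzymes oxidize polyunsaturated fatty acids, Glyma.20G054000 was higher (log2 fold change 2.06) and Glyma.10G153900 was not called (-0.24). The vicilin-like gene Glyma.01G177000, of the cupin family to which seed globulins belong, had 8559 and 9269 at stage 7.2, against 5279 at stage 7.1 and did not reach the 2-fold threshold (log2 fold change 0.95).

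Most genes of oil bodies and fatty acid synthesis were lower at stage 7.2. Of 14 tested among 16, 9 were lower, 3 higher and 2 not called, with a median of -1.51. The lower share was 64.3%, against 16.9% in the table of stage 9 that holds 10 of the 16. It was 57.8% in the table of variable genes and 60.1% in the TF table, which hold 4 and 2. Oleosins, the structural proteins that coat oil bodies, were lower in 3 of 3 genes. The oleosin gene Glyma.06G078700 had 39158 and 58942 at stage 7.2, against 143789 at stage 7.1 (log2 fold change -1.36 ± 0.30 (SE), edgeR adjusted p = 0.00146), and Glyma.04G077600 had 10030.5 and 14742 at stage 7.2, against 69157 at stage 7.1 (log2 fold change -2.29 ± 0.25 (SE), edgeR adjusted p = 3.24e-06). Glyma.20G196600, matching oleosin 1 of Arabidopsis, had 471 and 622 at stage 7.2, against 11218 at stage 7.1 (log2 fold change -4.17 ± 0.17 (SE), edgeR adjusted p = 7.57e-10). The microsomal omega-6 desaturase gene Glyma.20G111000, which makes linoleic acid from oleic acid, had 4904 and 7358 at stage 7.2, against 44151 at stage 7.1 (log2 fold change -2.66).

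Both genes named Wrinkled 1, a TF of the AP2 family that activates fatty acid synthesis in Arabidopsis seeds, were close to 0 at stage 7.2. Glyma.08G227700 had 2.3 and 0.694 at stage 7.2, against 212 at stage 7.1 (log2 fold change -6.80 ± 0.39 (SE), edgeR adjusted p = 1.07e-08), and Glyma.15G221600 had 0.575 and 0.694 at stage 7.2, against 147 at stage 7.1. Other oil body genes were higher. A caleosin-related gene, Glyma.09G123800, of a family of calcium-binding oil body proteins, had 5737 and 6437 at stage 7.2, against 904 at stage 7.1 (log2 fold change 2.94 ± 0.18 (SE), edgeR adjusted p = 1.88e-08), and the steroleosin SLO1-2 gene Glyma.08G010800 had 2998 and 3225 at stage 7.2, against 1646 at stage 7.1 (log2 fold change 1.11).

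The listed genes of RFO synthesis were all higher at stage 7.2, 5 of 5, with a median of 3.24. All 5 come from the table of stage 9, of which 39.9% were higher. Genes of the pathway outside the tables used here were not counted. The 5 genes took 0.431% and 0.460% of all counts at stage 7.2, against 0.0223% at stage 7.1. Galactinol synthase makes the galactosyl donor of the pathway. Its gene Glyma.10G145300 had 9108 and 10332 at stage 7.2, against 1536 at stage 7.1, Glyma.20G094500 had 938 and 885 at stage 7.2, against 110.3 at stage 7.1, and Glyma.03G229800 had 386 and 383 at stage 7.2, against 79.97 at stage 7.1 (log2 fold changes 2.85, 3.24 and 2.46). Raffinose synthase transfers galactose to sucrose, and its gene Glyma.06G179200 had 29574 and 35954 at stage 7.2, against 1975 at stage 7.1 (log2 fold change 4.24 ± 0.28 (SE), edgeR adjusted p = 3.39e-08). Stachyose synthase extends raffinose, and its gene Glyma.19G217700 changed the most, with 46698 and 53909 at stage 7.2, against 1747 at stage 7.1 (log2 fold change 5.04 ± 0.31 (SE), edgeR adjusted p = 2.18e-08). The pair of replicates differed little beside these steps.

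Genes of starch and sucrose metabolism changed in both directions. Of 16 genes, 7 were higher, 2 lower and 7 not called, with a median of 0.52. The higher share of 43.8% is near the 39.9% of the table of stage 9, which holds 13 of them. When the upper quartile scaling was used, 4 were higher and 4 lower, and without stage 7.2 replicate 2, 4 were higher. Beta-amylase, which releases maltose from starch, had in Glyma.09G168300 20804 and 20841 at stage 7.2, against 819.9 at stage 7.1 (log2 fold change 4.86 ± 0.25 (SE), edgeR adjusted p = 4.13e-09). The alpha-amylase gene Glyma.01G115000 had 5460.0 and 5924 at stage 7.2, against 1437 at stage 7.1 (log2 fold change 2.18 ± 0.17 (SE), edgeR adjusted p = 1.42e-07). Glucose-1-phosphate adenylyltransferase makes the ADP-glucose used in starch synthesis. Its gene Glyma.06G011700 was lower, with 148 and 99.9 at stage 7.2, against 2144 at stage 7.1 (log2 fold change -3.91 ± 0.17 (SE), edgeR adjusted p = 1.27e-09). Sucrose-phosphate synthase (Glyma.08G308600), which makes sucrose, had 719 and 659.9 at stage 7.2, against 58.7 at stage 7.1 (log2 fold change 3.75), and sucrose synthase (Glyma.15G182600), which cleaves it, had 209 and 204 at stage 7.2, against 568 at stage 7.1 (log2 fold change -1.27). Starch synthase IIb (Glyma.18G260100), which extends starch chains, had 36.8 and 49.3 at stage 7.2, against 11.1 at stage 7.1 (log2 fold change 2.13).

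Of 18 genes for sugar and amino acid transporters, 10 were higher, 1 lower and 7 not called, with a median of 1.32. The higher share was 55.6%, against 39.9% in the table of stage 9 that holds 13 of them. The SWEET-type sugar transporter gene Glyma.14G120300, of a family of bidirectional sugar exporters, had 4354 and 5089 at stage 7.2, against 91.1 at stage 7.1 (log2 fold change 5.89 ± 0.22 (SE), edgeR adjusted p = 4.76e-10), and Glyma.13G037900, of the same name, had 504 and 578 at stage 7.2, against 12.1 at stage 7.1 (log2 fold change 5.66). Amino acid transporter Glyma.01G218600 had 2049 and 1935 at stage 7.2, against 19.2 at stage 7.1 (log2 fold change 6.88 ± 0.23 (SE), edgeR adjusted p = 2.02e-10). The amino acid permease gene Glyma.17G192000 had 965 and 1199 at stage 7.2, against 16.2 at stage 7.1 (log2 fold change 6.24). All 4 genes were below 100 normalized counts at stage 7.1. The 1 lower gene was an inositol transporter gene, Glyma.09G087400, with 217 and 151 at stage 7.2, against 533 at stage 7.1.

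**Figure D4:**
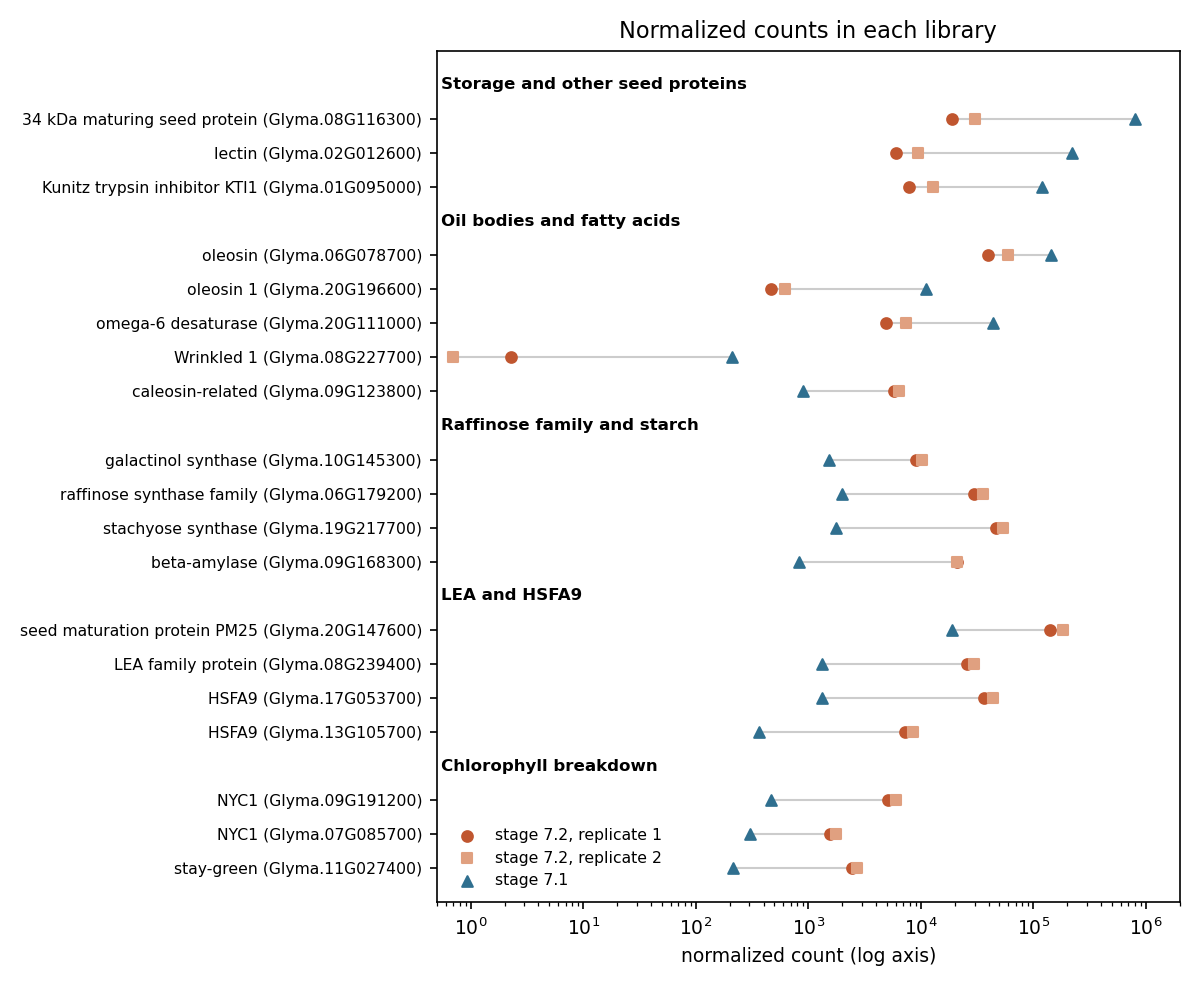
Normalized count (horizontal axis, logarithmic) of single genes (rows) in stage 7.2 replicate 1 (circles), stage 7.2 replicate 2 (squares) and stage 7.1 (triangles), grouped by function. The triangle lies right of both other marks for the 3 seed protein genes, 2 oleosins, the desaturase and Wrinkled 1, and left of them for the other genes.

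LEA proteins, hydrophilic proteins of the dry seed, were higher in 8 of 10 genes, with a median of 3.23. The higher share was 80%, against 39.9% in the table of stage 9 that holds 9 of them. Glyma.15G149600, named LEA5, was the 1 lower gene (43.1 and 45.8 at stage 7.2, against 267 at stage 7.1), and Glyma.U018200 was not called, with 3617 and 4348 at stage 7.2, against 3854 at stage 7.1. The group took 1.73% and 1.97% of all counts at stage 7.2, against 0.196% at stage 7.1. Seed maturation protein PM25 (Glyma.20G147600) had 139780.0 and 183653 at stage 7.2, against 18752 at stage 7.1 (log2 fold change 3.30 ± 0.39 (SE), edgeR adjusted p = 7.50e-06). The group 5 LEA gene Glyma.10G027600 had 119735 and 149585 at stage 7.2, against 17336 at stage 7.1 (log2 fold change 3.15 ± 0.37 (SE), edgeR adjusted p = 6.27e-06). These were the LEA genes with the most counts. The largest change was in Glyma.08G239400, with 25810.2 and 29723 at stage 7.2, against 1323 at stage 7.1 (log2 fold change 4.58 ± 0.27 (SE), edgeR adjusted p = 1.25e-08), and the 35 kDa seed maturation protein gene Glyma.19G189400 had 7613 and 8968 at stage 7.2, against 539.5 at stage 7.1 (log2 fold change 4.13).

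Heat shock factors, the TFs that bind the promoters of heat shock protein genes, were called in all 12 members, 8 higher and 4 lower. The median was 2.16, or 1.80 when the 1 member with 0 counts at stage 7.1 was set at its bound. Of the members, 66.7% were higher and 33.3% lower. The TF table, with 15.3% higher and 60.1% lower, holds 6 of them. The table of stage 9, with 39.9% higher and 16.9% lower, also holds 6, with HSFA6b in both. The HSFA9 gene Glyma.17G053700, a factor known from maturing seeds, had 36355 and 44012 at stage 7.2, against 1324 at stage 7.1 (log2 fold change 5.12 ± 0.30 (SE), edgeR adjusted p = 1.50e-08). Glyma.13G105700, named HSFA9 but with HSFA2 as its closest Arabidopsis match, had 7245 and 8465 at stage 7.2, against 362 at stage 7.1 (log2 fold change 4.63 ± 0.21 (SE), edgeR adjusted p = 1.90e-09). The HSFA6b gene Glyma.03G157300 had 77.6 and 78.4 at stage 7.2, against 7.09 at stage 7.1 (log2 fold change 3.64 ± 0.40 (SE), edgeR adjusted p = 3.82e-06). Glyma.03G191100, HSFA3, had 136 and 112 at stage 7.2, against 40.5 at stage 7.1 (log2 fold change 1.81). Glyma.05G095900, named heat shock transcription factor 34, had 168 and 196 at stage 7.2, against 8.1 at stage 7.1 (log2 fold change 4.66), while Glyma.04G052000, named HSFA2, was lower, with 248 and 217 at stage 7.2, against 1218 at stage 7.1 (log2 fold change -2.19 ± 0.13 (SE), edgeR adjusted p = 1.50e-08).

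Small heat shock proteins, chaperones that hold unfolding proteins in solution, also changed in both directions. Of 23 tested among 28, 11 were higher (47.8%, against 39.9% in the table that holds 27 of the 28), 4 lower and 8 not called, with a median of 0.90. The group took 0.0431% and 0.0411% of all counts at stage 7.2, against 0.0596% at stage 7.1. The gene with the most counts, HSP18.1B (Glyma.14G063700), was lower, with 2908 and 3356 at stage 7.2, against 10845 at stage 7.1 (log2 fold change -1.60 ± 0.15 (SE), edgeR adjusted p = 1.09e-06). Its neighbour in number Glyma.14G063800, a 17.7 kDa class I protein gene, was higher, with 2044 and 2311 at stage 7.2, against 204 at stage 7.1 (log2 fold change 3.60 ± 0.17 (SE), edgeR adjusted p = 2.25e-09). Both replicates of stage 7.2 were on one side of stage 7.1 in each gene. The 18.5 kDa class I gene Glyma.07G200200 had 191 and 193 at stage 7.2, against 1882 at stage 7.1 (log2 fold change -3.10 ± 0.12 (SE), edgeR adjusted p = 6.03e-10). The 5 genes not tested were near 0 in all 3 libraries, among them the HSP21 gene Glyma.08G318900, with 1.72 and 1.39 at stage 7.2, against 3.04 at stage 7.1, and the 17.9 kDa class II gene Glyma.14G099900, with 3.45 and 2.08 at stage 7.2, against 1.012 at stage 7.1.

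Other chaperones had no common direction, with 9 higher, 8 lower and 21 not called of 38 tested, and a median of 0.29. The HSP70 gene Glyma.01G238600, an ATP-driven chaperone, had 2781 and 3426 at stage 7.2, against 1731 at stage 7.1 (log2 fold change 1.03), just past the 2-fold threshold, and its call was lost under several settings. The DnaJ-like gene Glyma.03G216900, of the family of HSP70 partners, had 333 and 402 at stage 7.2, against 2.02 at stage 7.1, where 2 counts at stage 7.1 give a ratio of 180 with a counting interval of 49.7 to 1487. Its 2 libraries of stage 7.2 differed by far less than the stages.

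Chlorophyll breakdown genes were higher in 4 of 5 cases, with a median of 3.68. The table of stage 9, of which 39.9% were higher, holds 3 of them. Chlorophyll b reductase, NYC1, starts the conversion of chlorophyll b, and its genes Glyma.09G191200 and Glyma.07G085700 had 5116 and 6011 at stage 7.2, against 469.7 at stage 7.1, and 1569.7 and 1763 at stage 7.2, against 306 at stage 7.1 (log2 fold change 3.76 ± 0.19 (SE), edgeR adjusted p = 4.35e-09 for the first and a log2 fold change of 2.64 for the second). The stay-green protein takes the magnesium out of chlorophyll. Its genes Glyma.11G027400 and Glyma.01G214600 had 2468 and 2719 at stage 7.2, against 216 at stage 7.1, and 1789 and 1745 at stage 7.2, against 158 at stage 7.1 (log2 fold changes 3.78 and 3.68). The gene of red chlorophyll catabolite reductase, a later step, was not called: Glyma.14G012500 had 52.3 and 53.4 at stage 7.2, against 79 at stage 7.1. The text of the study gives STAYGREEN1 the number Glyma.01G241600, which differs from Glyma.01G214600 only in the order of its digits. The tables used here do not name Glyma.01G241600, so whether it is a stay-green gene is uncertain. It was outside this group and had 163 and 153 at stage 7.2, against 211 at stage 7.1 (log2 fold change -0.22 ± 0.17 (SE), edgeR adjusted p = 0.259, not called).

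Genes of photosynthesis with a nuclear best match were split, 5 higher, 4 lower and 6 not called of 15 tested, with a median of 0.25. The small subunit of ribulose bisphosphate carboxylase (Glyma.13G097100), part of the enzyme that fixes carbon dioxide, had 2322 and 2633 at stage 7.2, against 635 at stage 7.1 (log2 fold change 2.16 ± 0.15 (SE), edgeR adjusted p = 7.43e-08). Oxygen-evolving enhancer protein 1 (Glyma.01G180800), a subunit of photosystem II, had 3.45 and 10.4 at stage 7.2, against 836 at stage 7.1 (log2 fold change -6.77 ± 0.26 (SE), edgeR adjusted p = 4.78e-10). Glyma.01G050900, named oxygen-evolving enhancer protein 3-2 with PsbQ-like 2 as its closest Arabidopsis match, was higher. It had 189 and 258 at stage 7.2, against 16.2 at stage 7.1 (log2 fold change 3.97).

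Plastid-like genes are gene models whose closest Arabidopsis match is encoded in the plastid, and reads of the plastid genome cannot be told apart from theirs. Of 86 tested among 96, 47 were higher and 39 not called, with a median of 1.58. Their levels were low and uneven between libraries. They summed to 2820.3 and 2238 normalized counts at stage 7.2, against 1129 at stage 7.1, while the sum ran from 2117 to 19448 in the libraries of later stages. With DESeq2, 10 of them were called higher. The ATP synthase subunit alpha gene Glyma.12G232000 had 301 and 246 at stage 7.2, against 136 at stage 7.1 (log2 fold change 1.21 ± 0.19 (SE), edgeR adjusted p = 8.69e-05), and its call was lost without stage 7.2 replicate 1. The large subunit of ribulose bisphosphate carboxylase, Glyma.12G061600, had 137 and 102 at stage 7.2, against 79.97 at stage 7.1 and was not called (log2 fold change 0.78).

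The ABA list split between receptors and TFs. Of 4 receptor genes, 3 were higher and 1 lower, and of 6 TFs of the AREB/ABI5 group, which act downstream of ABA, 5 were lower and 1 was not called. The receptor gene PYL6 (Glyma.13G229300) had 4527 and 6063 at stage 7.2, against 1949.6 at stage 7.1 (log2 fold change 1.63 ± 0.19 (SE), edgeR adjusted p = 7.09e-06), a call that was lost in the fit of all 11 libraries, with a log2 fold change of 1.63. The TF gene Glyma.13G153200, named abscisic acid insensitive, had 751 and 760.5 at stage 7.2, against 3878 at stage 7.1 (log2 fold change -2.17 ± 0.12 (SE), edgeR adjusted p = 1.02e-08). The AREB3-like genes Glyma.08G227000 and Glyma.06G314400 came close to 0 at stage 7.2, with 6.32 and 3.47 at stage 7.2, against 455 at stage 7.1, and 1.15 and 1.39 at stage 7.2, against 194 at stage 7.1. For the last of these, 2 counts in each library of stage 7.2 give a ratio of 155 in favour of stage 7.1, with a counting interval of 59.4 to 573. All 6 TFs stand in the table chosen for variation over these libraries.

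Genes of auxin signalling were mostly lower, 27 of 44 (61.4%), with 4 higher, 13 not called and a median of -1.62. This share is close to the 60.1% lower of the TF table, which holds 32 of them. Of 22 genes named auxin-induced protein, the repressor family Aux/IAA, 17 were lower and 5 not called. Glyma.08G273500, with the most counts of these, had 622 and 646 at stage 7.2, against 1490.0 at stage 7.1 (log2 fold change -1.04, near the 2-fold threshold), and Glyma.14G185400 had 58.6 and 63.8 at stage 7.2, against 1293 at stage 7.1 (log2 fold change -4.21 ± 0.14 (SE), edgeR adjusted p = 1.97e-10). Glyma.15G020300 had 79.9 and 114 at stage 7.2, against 1468 at stage 7.1 (log2 fold change -3.74), and Glyma.01G098000, with 628 and 714 at stage 7.2, against 849 at stage 7.1, was not called.

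Auxin response factors, the TFs that the repressors bind, were lower in 10 of 18 genes and higher in 2. The higher ones were both matches of ARF19: Glyma.13G112600 had 336 and 282 at stage 7.2, against 133 at stage 7.1 and Glyma.09G072200 had 199 and 139 at stage 7.2, against 75.9 at stage 7.1 (log2 fold changes 1.42 and 1.35). Without stage 7.2 replicate 1, the log2 fold change of Glyma.09G072200 was 0.94, below the 2-fold threshold. A further ARF19 match, Glyma.01G002100, had 157 and 154 at stage 7.2, against 161 at stage 7.1, and was not called (log2 fold change 0.14). On the lower side, Glyma.10G210600 (ARF16) had 38.5 and 36.8 at stage 7.2, against 314 at stage 7.1, Glyma.12G171000 (ARF4) had 27.6 and 18 at stage 7.2, against 155 at stage 7.1 and Glyma.13G325200 (ARF10) had 119.6 and 139 at stage 7.2, against 393 at stage 7.1 (log2 fold changes -2.86, -2.55 and -1.41). Both GH3 genes, of the family that conjugates auxin to amino acids, were higher, and Glyma.07G057900 had 871 and 811 at stage 7.2, against 73.9 at stage 7.1 (log2 fold change 3.70).

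AP2/ERF TFs, a large family with roles in ethylene and drought responses, went in both directions, with 29 higher, 27 lower and 17 not called of 73 tested. The list was matched by name and also holds 3 zinc finger genes named for an interaction with DREB2A, 2 of them higher and 1 lower. Factors of the DREB2 type bind the dehydration-responsive element. Of the genes so named, Glyma.02G261700 (2A1) had 4106 and 4552 at stage 7.2, against 55.7 at stage 7.1 (log2 fold change 6.47 ± 0.22 (SE), edgeR adjusted p = 2.52e-10), Glyma.14G056200 (2A2) had 2362 and 2451 at stage 7.2, against 79 at stage 7.1 (log2 fold change 5.12), and Glyma.07G156200 (2D1) had 333 and 154 at stage 7.2, against 49.6 at stage 7.1 (log2 fold change 2.50). The replicates of the last gene differed by more than 2-fold between themselves. Glyma.08G137600 (DREB2) was higher, with 50.6 and 43 at stage 7.2, against 25.3 at stage 7.1 (log2 fold change 1.08), and Glyma.05G179900 (DREB2), with 20.7 and 5.55 at stage 7.2, against 14.2 at stage 7.1, was not called (log2 fold change 0.12). Glyma.02G181600 (2F), with 4.02 and 4.86 at stage 7.2, against 0 at stage 7.1, was not tested.

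The ERF110 matches Glyma.06G148400 and Glyma.04G217400 had 925 and 788 at stage 7.2, against 76.9 at stage 7.1, and 231 and 209 at stage 7.2, against 10.1 at stage 7.1 (log2 fold changes 3.67 and 4.62). The remaining match, Glyma.08G145300, had 149 and 121 at stage 7.2, against 59.7 at stage 7.1 (log2 fold change 1.38), and its call was lost in the fit of all 11 libraries, with a log2 fold change of 1.37. AINTEGUMENTA-LIKE 6 (Glyma.01G022500) had 1571 and 1511 at stage 7.2, against 165 at stage 7.1 (log2 fold change 3.42 ± 0.16 (SE), edgeR adjusted p = 2.16e-09). The ERF 1A gene Glyma.14G205600 was lower, with 5.75 and 9.71 at stage 7.2, against 330.0 at stage 7.1 (log2 fold change -5.24 ± 0.26 (SE), edgeR adjusted p = 3.11e-09). The RAP2.1-like gene Glyma.17G240100, of the same family but not in the list, had 1102 and 1104 at stage 7.2, against 13.2 at stage 7.1 (log2 fold change 6.57 ± 0.23 (SE), edgeR adjusted p = 2.52e-10).

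WRKY TFs, a plant family best known from stress and senescence, were lower in 20 of 33 genes (60.6%, against 60.1% in the TF table that holds 29 of the 35) and higher in 7. The WRKY6 homologue Glyma.13G310100 stood on the higher side, with 918 and 1051 at stage 7.2, against 23.3 at stage 7.1 (log2 fold change 5.59 ± 0.22 (SE), edgeR adjusted p = 6.33e-10). Glyma.08G142400, which the tables name WRKY6, had 408 and 425 at stage 7.2, against 166 at stage 7.1 (log2 fold change 1.52 ± 0.15 (SE), edgeR adjusted p = 1.79e-06), a call that was lost in the fit of all 11 libraries, with a log2 fold change of 1.51. NAC TFs, which include regulators of senescence, were higher in 6 (50%, against 39.9% in the table of stage 9 that holds 9 of them) and lower in 2 of 12 genes, with a median of 1.75. The difference between the WRKY and NAC genes was not tested. The NAC genes with the most counts were Glyma.13G279900, with 7337 and 7703 at stage 7.2, against 888 at stage 7.1 (log2 fold change 3.28 ± 0.19 (SE), edgeR adjusted p = 9.86e-09), and Glyma.12G221500, with 2365 and 3059 at stage 7.2, against 467 at stage 7.1 (log2 fold change 2.73 ± 0.19 (SE), edgeR adjusted p = 4.73e-08). Both replicates of stage 7.2 were above stage 7.1 in these genes.

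MADS-box, YABBY and growth-regulating TFs, known from organ development, were lower in 23 of 36 genes (63.9%, against 60.1% in the TF table that holds 34 of the 39) and higher in 4. With DESeq2, 15 were lower. AGL15 (Glyma.U018000), an embryo MADS-box factor in Arabidopsis, had 2.3 and 3.47 at stage 7.2, against 251 at stage 7.1 (log2 fold change -6.23 ± 0.32 (SE), edgeR adjusted p = 3.85e-09), and Glyma.17G101300 had 1.72 and 2.08 at stage 7.2, against 149 at stage 7.1. The MADS-box gene Glyma.20G153700, a SEPALLATA3 homologue, was higher, with 76.5 and 72.2 at stage 7.2, against 11.1 at stage 7.1 (log2 fold change 2.92). The genes of this group with the most counts were not called: the YABBY gene Glyma.03G029800 had 1352 and 1508 at stage 7.2, against 1109 at stage 7.1, and the growth-regulating factor gene Glyma.16G007600 had 1157 and 1160.1 at stage 7.2, against 975 at stage 7.1 (log2 fold changes 0.56 and 0.44).

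Large changes were also found in other TF families. Zinc finger homeodomain gene Glyma.09G170500 had 0.575 and 0.694 at stage 7.2, against 639 at stage 7.1, and with 1 count in each library of stage 7.2 the ratio was 1016 in favour of stage 7.1, with a counting interval of 280 to 8405. A GATA factor gene, Glyma.15G169300, had 1.15 and 0.694 at stage 7.2, against 565 at stage 7.1 (ratio 599 in favour of stage 7.1, counting interval 204 to 2912). The GATA gene Glyma.17G228700 moved the other way, with 63.2 and 52 at stage 7.2, against 10.1 at stage 7.1 (log2 fold change 2.70). The bHLH93-like gene Glyma.09G203000 had 6.32 and 11.8 at stage 7.2, against 910.0 at stage 7.1 (log2 fold change -6.48 ± 0.21 (SE), edgeR adjusted p = 1.97e-10). On the higher side, the HECATE2 homologue Glyma.11G055300 had 167 and 212 at stage 7.2, against 3.04 at stage 7.1 (ratio 61.8, counting interval 21.05 to 301). The zinc finger gene Glyma.12G205700, which had the most counts of the TF table, had 15752 and 18250.0 at stage 7.2, against 4834 at stage 7.1 (log2 fold change 2.01 ± 0.21 (SE), edgeR adjusted p = 2.41e-06).

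Genes of cell division and histones were lower at stage 7.2 in 30 of 42 cases (71.4%), against 16.9% lower in the table of stage 9 that holds 32 of them and 57.8% in the table of variable genes that holds 11, and 4 were higher. The median was -1.76. With DESeq2, 17 were lower. Kinesins, the motor proteins of microtubules, were lower in 8 of 11 genes, and Glyma.01G168200 had 9.2 and 5.55 at stage 7.2, against 244 at stage 7.1 (log2 fold change -4.81 ± 0.28 (SE), edgeR adjusted p = 1.43e-08). All 4 tubulin genes were lower, among them Glyma.19G127700 with 241 and 203 at stage 7.2, against 1306 at stage 7.1 (log2 fold change -2.36 ± 0.13 (SE), edgeR adjusted p = 1.04e-08). Of 17 histone genes, 11 were lower and 2 higher. The histone H2B gene with the most counts went against the group: Glyma.11G191600 had 592 and 539 at stage 7.2, against 204 at stage 7.1 (log2 fold change 1.66 ± 0.15 (SE), edgeR adjusted p = 7.10e-07), while Glyma.11G141600, also H2B, had 200.1 and 182 at stage 7.2, against 875 at stage 7.1 (log2 fold change -1.999).

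Cell wall genes had no common direction, with 14 higher, 15 lower and 9 not called of 38 tested. The extensin-like gene Glyma.17G111100, a cell wall protein by name whose closest match is a lipid-transfer type protein, had the most counts of the group at stage 7.1: 107 and 115 at stage 7.2, against 8814 at stage 7.1 (log2 fold change -6.12 ± 0.15 (SE), edgeR adjusted p = 4.10e-11). Expansins loosen cell walls, and the expansin 2 gene Glyma.17G101400 had 2629 and 2682 at stage 7.2, against 123 at stage 7.1 (log2 fold change 4.62 ± 0.18 (SE), edgeR adjusted p = 5.79e-10). Lipid transfer proteins, small secreted proteins that bind lipids, were higher in 6 of 8 genes. The higher share was 75%, against 39.9% in the table of stage 9 that holds 5 of them. Glyma.03G040000 had 10965 and 12749 at stage 7.2, against 751 at stage 7.1 (log2 fold change 4.17 ± 0.22 (SE), edgeR adjusted p = 5.64e-09), and Glyma.03G040400 had 10292 and 11078 at stage 7.2, against 2234 at stage 7.1 (log2 fold change 2.45 ± 0.19 (SE), edgeR adjusted p = 1.50e-07). The list has 3 genes of close number on chromosome 3, whose reads may be shared.

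Aquaporins, the water channels of cell membranes, were lower in 3 of 8 genes and not called in 5. The lower share was 37.5%, against 16.9% in the table of stage 9 that holds 8 of the 9 members. The tonoplast genes Glyma.09G160500 and Glyma.16G210000, which held most of the reads of the group, had 38229 and 47100.1 at stage 7.2, against 30618 at stage 7.1, and 21863 and 24768 at stage 7.2, against 15771 at stage 7.1 (log2 fold changes 0.67 and 0.76, neither past the 2-fold threshold). The plasma membrane gene Glyma.01G220600 had 8.05 and 3.47 at stage 7.2, against 171 at stage 7.1 (log2 fold change -4.63 ± 0.36 (SE), edgeR adjusted p = 1.42e-07), and PIP2-7 (Glyma.12G172500) had 175 and 255 at stage 7.2, against 587 at stage 7.1 (log2 fold change -1.26).

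Ubiquitin ligases, which mark proteins for breakdown, were higher in 38 of 88 genes (43.2%) and lower in 12, near the 39.9% and 16.9% of the table from which 76 of them come. The F-box gene PP2-B1 (Glyma.03G253900) had 10956 and 13810.0 at stage 7.2, against 317 at stage 7.1 (log2 fold change 5.48 ± 0.26 (SE), edgeR adjusted p = 2.08e-09). Glyma.11G236600, a RING finger gene, had 1356 and 1785 at stage 7.2, against 27.3 at stage 7.1 (log2 fold change 6.03 ± 0.26 (SE), edgeR adjusted p = 1.18e-09). Ribosomal protein genes were mostly not called, 11 of 17, with 3 higher and 3 lower. Of these, the 30S ribosomal protein S6 gene Glyma.09G032900 had 911 and 875 at stage 7.2, against 137 at stage 7.1 (log2 fold change 2.90 ± 0.16 (SE), edgeR adjusted p = 6.76e-09), and Glyma.20G207500, matching L14, had 563 and 595 at stage 7.2, against 1226 at stage 7.1 (log2 fold change -0.89, below the 2-fold threshold).

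Where the mean reached 100 normalized counts, the largest increases of genes with a name were in enzymes, transporters and regulators. The glyoxalase-like gene Glyma.17G115900, of a family that detoxifies methylglyoxal, had 1418 and 1609.8 at stage 7.2, against 5.06 at stage 7.1 (log2 fold change 8.39 ± 0.28 (SE), edgeR adjusted p = 2.08e-10). An oligopeptide transporter gene, Glyma.05G229700, had 7112 and 8843 at stage 7.2, against 66.8 at stage 7.1 (log2 fold change 7.09 ± 0.27 (SE), edgeR adjusted p = 4.91e-10), and Glyma.05G107600, with an ACT domain, had 5356 and 4687 at stage 7.2, against 58.7 at stage 7.1 (log2 fold change 6.61 ± 0.24 (SE), edgeR adjusted p = 3.37e-10). These 3 were at low levels at stage 7.1, with 66.8 normalized counts at most. The alliinase family gene Glyma.16G162400 had 758 and 629 at stage 7.2, against 3.04 at stage 7.1 (ratio 230.3, counting interval 78.7 to 1117). A glucosyltransferase gene, Glyma.01G021700, had 233 and 253 at stage 7.2, against 2.02 at stage 7.1 (ratio 119, counting interval 33.0 to 988), and the MARCH3-like RING gene Glyma.09G250000 had 285 and 389 at stage 7.2, against 4.05 at stage 7.1 (log2 fold change 6.53 ± 0.39 (SE), edgeR adjusted p = 1.48e-08).

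The largest decreases outside the TFs were of several kinds, a transporter gene among them. Glyma.01G200100, named peptide transporter PTR1 and matching a nitrate transporter, had 1.15 and 2.08 at stage 7.2, against 421 at stage 7.1 (ratio 268 in favour of stage 7.1, counting interval 114 to 829). The BTB/POZ gene Glyma.13G362200, of the NPH3 family of light-response proteins, had 12.1 and 6.24 at stage 7.2, against 1172 at stage 7.1 (log2 fold change -6.75 ± 0.21 (SE), edgeR adjusted p = 1.36e-10). Ferritin (Glyma.01G124500), the plastid iron store, had 25.3 and 22.2 at stage 7.2, against 1599 at stage 7.1 (log2 fold change -5.87 ± 0.15 (SE), edgeR adjusted p = 6.05e-11). A gene with a heavy-metal-associated domain, Glyma.09G255100, had 58.1 and 42.3 at stage 7.2, against 2128 at stage 7.1 (log2 fold change -5.19 ± 0.16 (SE), edgeR adjusted p = 1.36e-10). In each of these genes both libraries of stage 7.2 were far below stage 7.1.

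The 2 reference genes of the study stayed near the same level. Glyma.06G078500, for the beta subunit of the 20S proteasome, had 766 and 782 at stage 7.2, against 758 at stage 7.1 (log2 fold change 0.22 ± 0.12 (SE), edgeR adjusted p = 0.13). The gene of 60S ribosomal protein L6, Glyma.15G271300, had 3103 and 3102 at stage 7.2, against 2973 at stage 7.1 (log2 fold change 0.25 ± 0.14 (SE), edgeR adjusted p = 0.123). Neither was called.

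The levels reached at stage 7.2 were followed in the 6 fresh libraries of the later stages as a description, since stages 7.3 to 8.3 have 1 library each. List medians were taken as differences from stage 7.1 in log2(normalized count + 1), where the median of all genes tested was -0.21 and -0.25 at stage 7.2 and -0.46 and -0.45 at stage 9. The RFO list stood at 3.08 and 2.99 at stage 7.2 and at 3.49 and 3.52 at stage 9, and chlorophyll breakdown at 3.44 and 3.46 at stage 7.2 and 3.15 and 3.27 at stage 9. The LEA list had 2.86 and 3.20 at stage 7.2, then 1.08 at stage 8.2, and by stage 9 it had 2.24 and 2.45. Oil genes had -1.76 and -1.83 at stage 7.2 and -3.92 and -4.04 at stage 9. Small heat shock proteins, at 0.87 and 0.84 at stage 7.2, stood at 3.02 at stage 8.1 and at 6.84 and 7.09 at stage 9. The cell division list had -1.85 and -1.88 at stage 7.2, -2.003 at stage 7.3, -0.87 at stage 8.1, and by stage 9 it had -0.39 and -0.06. Many of these genes come from the table chosen for differences between stage 9 and dried seeds of stage 7.2. It holds 27 of 28 small heat shock protein genes, 32 of 42 cell division genes, 9 of 10 LEA genes and all 5 RFO genes. Their courses from stage 7.2 to stage 9 are therefore partly set by that choice.

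The HSFA9 gene Glyma.17G053700 had 36044 at stage 7.3, 12176 at stage 8.1, 1572 at stage 8.2, 5735 at stage 8.3, and in the stage 9 pair 4243 and 6389.7, so that it was highest around stages 7.2 and 7.3. The stachyose synthase gene Glyma.19G217700 had 51055 at stage 7.3, 26621 at stage 8.1, 8566 at stage 8.2, 16991 at stage 8.3, and in the stage 9 pair 17859.5 and 20074. Lectin (Glyma.02G012600), already low at stage 7.2, had 3579.5 at stage 7.3, 2178 at stage 8.1, 2196 at stage 8.2, 3301 at stage 8.3, and in the stage 9 pair 3169.6 and 2708. The small heat shock protein gene HSP18.1B, which was lower at stage 7.2 than at stage 7.1, had 6258 at stage 7.3, 10947 at stage 8.1, 6699 at stage 8.2, 36969 at stage 8.3, and in the stage 9 pair 29807 and 32367, and was thus above its stage 7.1 level from stage 8.3 on.

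**Figure D5:**
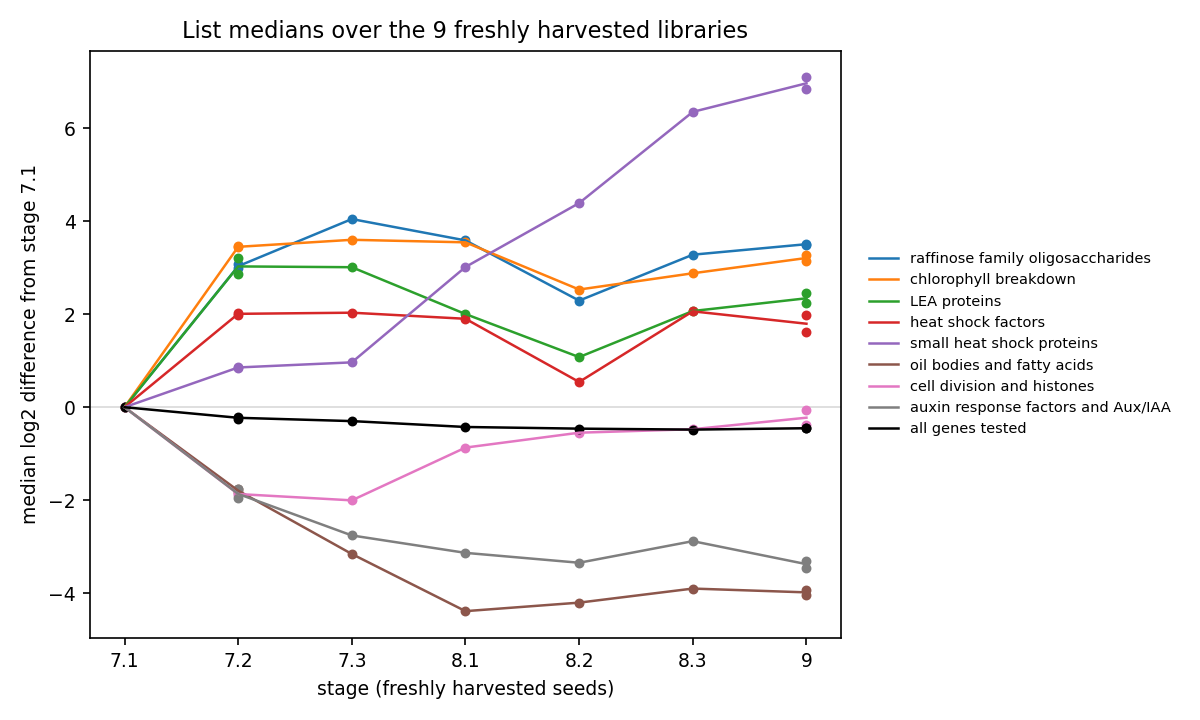
Median over the members of a list of the difference from stage 7.1 in log2(normalized count + 1) (vertical axis) at each stage of freshly harvested seeds (horizontal axis). Points are single libraries and lines join stage means, with 2 libraries at stages 7.2 and 9 and 1 at every other stage. The RFO and chlorophyll breakdown lists are above 2 from stage 7.2 on, and the small heat shock proteins pass 6 at stage 8.3. Most RFO, LEA, small heat shock protein and cell division genes come from a table chosen on stage 9 against dried stage 7.2. Their courses are partly set by that choice.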

How the data were processed

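RNA of whole soybean seeds was sequenced in 11 libraries, of which 3 were compared here. The authors mapped reads to the Williams 82 genome with Bowtie2 and deposited raw counts per gene. The counting tool is not given in the sources used here. A line without a gene name held 0 counts and was left out. Stage 7.2 was tested against stage 7.1 with the quasi-likelihood test of edgeR 4.0.16 in R 4.3.3 (TMM scaling, filterByExpr, Benjamini-Hochberg adjustment). A gene was called at a change of at least 2-fold and an adjusted p below 0.05. The 3 libraries leave 1 residual degree of freedom. edgeR gives no SE, so the SE printed here is the absolute log2 fold change divided by the square root of the F statistic of that test. It therefore shares the spread that the test borrows across genes. The script was tested on simulated data. Normalized counts, shares of counts with Wilson intervals (which, like the intervals of low counts, cover counting error only), and list medians were computed in Python 3.11.15, and DESeq2 1.42.0 was an alternative, as were other scalings, filters, thresholds and sets of libraries. The members and gene lists were chosen with earlier results of these data known.

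Genes were named by a rule: the 10 largest changes per direction among called genes with a name, a mean of at least 100 normalized counts and replicates within 1 on the log2 scale, the 5 genes with the most counts per stage, the genes of each list with the most counts or the largest change, and those the study gives by identifier. Other list members are named as further examples, chosen after their values were seen. Gene names came from the study's tables. No reference table used here matched the identifiers, so no sequences are shown.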

Additional observations from a re-analysis of the deposited data

How the results depend on the processing

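The number of genes called lower was 9345, and 5911 with DESeq2, where the cause was not tested. The number called higher was 7204, and 11085 with no fold threshold. For the other alternatives the counts stayed within 1.5 times: those of higher genes lay between 5548 and 7742, and those of lower genes between 6678 and 10838, with 9 freshly harvested libraries, all 11 libraries, no filter, at least 10 counts in every library, other scalings or an adjusted p below 0.01. Without each stage 7.2 replicate in turn, 6357 to 6465 genes were higher and 9644 to 9917 lower, in a fit of the fresh libraries where the lone libraries are assumed to vary like the stage 9 pair. The root mean square difference of the replicates was 0.263, against 0.452 with a minimum mean of 10 normalized counts. At stage 7.2 the share of counts of the top 10 genes fell by 19.8 percentage points against stage 7.1, and that of the top 100 fell by 18.4. Of 1294 values of the 132 named genes tested, 1278 kept their side of the thresholds, 14 lost the call and 2 gained it, and none changed direction. The calls lost were of Glyma.01G238600 (log2 fold change 0.78 to 0.93), Glyma.12G232000 (0.93 and 0.95), Glyma.08G273500 (-0.98 and -0.99) and Glyma.09G072200 (0.94), and, in the fit of all 11 libraries, of Glyma.10G207100, Glyma.18G155800, Glyma.13G229300, Glyma.08G142400 and Glyma.08G145300 (log2 fold change 1.37 to 1.97). The gained call was that of Glyma.20G207500 (-1.15 and -1.03). Other lists whose counts moved by over 1.5 times were other chaperones (5 higher with the upper quartile and 5 lower with DESeq2), ubiquitin ligases (6 lower with DESeq2), ribosomal proteins (5 lower with the upper quartile or without stage 7.2 replicate 2) and lipid transfer proteins (1 lower with DESeq2). The median log2 fold change of the aquaporins was 0.58 with DESeq2, against -0.06 with edgeR. The plastid-like, starch, MADS-box and cell division counts are given with their groups.

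No paired analysis was possible because stage 7.1 has 1 library with no replicate number. With 1 residual degree of freedom among the 3 libraries, the test rests on a spread shared across genes, and the levels of genes with few counts are the least certain.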

Other observations

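Some genes were seen at one stage and not at the other. At least 100 normalized counts at stage 7.1 and 0 counts in both libraries of stage 7.2 were found for 24 genes, of which 1 is in the tables of the study. The reverse, a mean of at least 100 normalized counts at stage 7.2 and 0 counts at stage 7.1, was found for 4 genes. These genes were picked for their values. Glyma.08G028800 had 0 counts in both libraries of stage 7.2, against 632 counts at stage 7.1, and was at least 307-fold lower at stage 7.2, with 3 counts per library as the floor. Glyma.13G242300 had 709 and 366 counts at stage 7.2, against 0 at stage 7.1, and was at least 109-fold higher. The 1 named gene of the 4, Glyma.13G309900, matches a mitogen-activated protein kinase kinase kinase and had 164 and 173 counts at stage 7.2, against 0 at stage 7.1, which is at least 35.3-fold higher. With the limit at 3 counts in place of 0, there were 110 genes of the first kind and 33 of the second. At this depth 0 counts do not show that a transcript was absent.

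Genes of the same name also moved in opposite directions. The cell wall list has 5 genes named ALTERED XYLOGLUCAN 4, of which 2 were higher, 2 lower and 1 not called. Glyma.01G034900 had 5.17 and 10.4 at stage 7.2, against 218 at stage 7.1, and Glyma.02G031300 had 36.8 and 48.6 at stage 7.2, against 8.1 at stage 7.1 (log2 fold changes -4.63 and 2.57). How reads of such copies were divided in the counting was not tested.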
